A study of Dicentrarchus labrax with 16 samples.

Results

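The genes described here are the 100 with the highest expression values in muscle among the genes that the European sea bass (Dicentrarchus labrax) expression tables list for both muscle and testis. They were chosen by their muscle values, so their height in muscle is a description and supports nothing, while their testis values and their identifier numbers were not used to rank them. A listing in testis was required, however, and 32 genes with muscle values above that of the last one kept were left out for lack of it. The testis values below are thus those of listed genes only. The tables share 10538 genes, and these 100 are numbered 1 to 100 below, from the highest muscle value down. RNA was sequenced in bulk from muscle and from testis of wild adult fish caught by speargun in the non-reproductive season. There were 5 libraries labelled for each tissue, of which the authors set aside 1 muscle library. Fish age in years and genotype are not given in the sources used here, and no treatment was applied. The authors' tables give 1 value per gene and tissue, headed cpm (read counts scaled to library size), with no value per fish. No spread between fish can therefore be given for any value below, no test was made, and the depth behind each value is unknown. Methylation was also measured in muscle and testis, but gene positions on that genome build were not used here, so it was not joined to these genes.

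Muscle fibres are filled with contractile filaments and with the enzymes that supply them with energy, and a small set of messengers is known to make up much of the RNA of this tissue. Testis mixes germ cells with supporting and hormone-producing cells, and transcribes a wide set of genes. Which germ cell stages were present in these fish, caught outside the reproductive season, was not examined. The files pair the identifiers with no gene name, and none of the 26719 identifiers (0 matches) is in the RefSeq gene table of the species, so the roles of the 100 genes are not given and the tissues could not be checked against marker genes. The values are counted per gene and not per base of transcript, so a long gene draws more reads than a short gene with the same number of transcripts. In bulk tissue, fewer cells of a type and less RNA per cell cannot be told apart.

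The 100 genes held 70.7% of the summed muscle values and 3.23% of the summed testis values. Their values added up to 786386 cpm of a total of 1111921 in muscle, against 25896 cpm of 801212 in testis, a ratio of 30.4 as deposited and of 21.9 between the shares. In muscle they ran from 96984 cpm (gene 1) to 529.8 cpm (gene 100), with a median of 1632 cpm, while the median of all shared genes was 5.83 cpm. In testis they ran from 1.37 cpm (gene 91) to 2118 cpm (gene 68), with a median of 20.2 cpm, below the 40.5 cpm of all shared genes. The testis median of the 100 genes was thus below that of the shared genes, while their testis ranks ran from 9 to 15625. Gene 100 held muscle rank 132 of the 12715 listed genes, because 32 genes above it are listed for muscle alone. Those 32 held a further 8.87% of the muscle sum, and the highest of them stood at muscle rank 7 with 35159 cpm. At the threshold, gene 100 had 529.8 cpm and gene 99 had 530.9 cpm in muscle, and the shared genes just outside had 528.5 and 524.7 cpm.

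**Figure D1:**
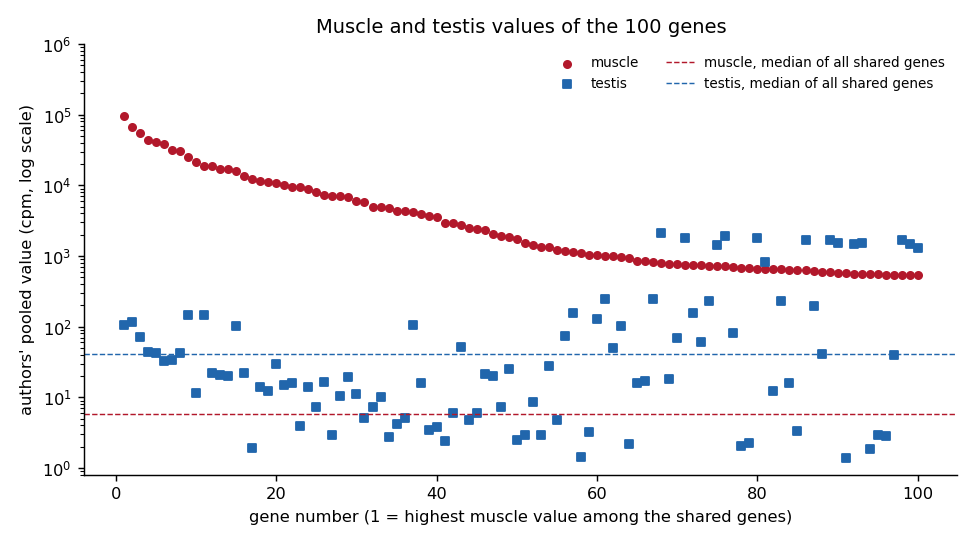
Values in muscle (circles) and testis (squares) of the 100 genes, in cpm on a log axis, ordered by muscle value; dashed lines give the medians of all shared genes, 5.83 cpm in muscle and 40.5 cpm in testis. Testis values lie between 1.90 and 148 cpm for the genes numbered 1 to 50 and are scattered from 1.37 to 2118 cpm beyond them.

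The muscle sum was concentrated in the genes numbered lowest. Gene 1 alone held 8.72% of it, the first 5 genes 27.5%, the first 10 genes 40.6% and the first 50 genes 67.1%. It took 17 of the 100 genes to pass 50% of the muscle sum. The genes numbered 51 to 100 added 3.59%. In testis more of the sum lay with the genes numbered 51 to 100. The first 10 genes held 0.0810% of the testis sum and the first 50 genes 0.183%, while those numbered 51 to 100 held 3.05%. The next 100 shared genes by muscle value held 3.15% of the muscle sum and 7.81% of the testis sum, and the 100 after those held 1.78% and 3.98%. The smaller muscle share of these later sets follows from the ranking. In testis, which was not used to rank, each of them had a larger share than the 100 genes described here.

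**Figure D2:**
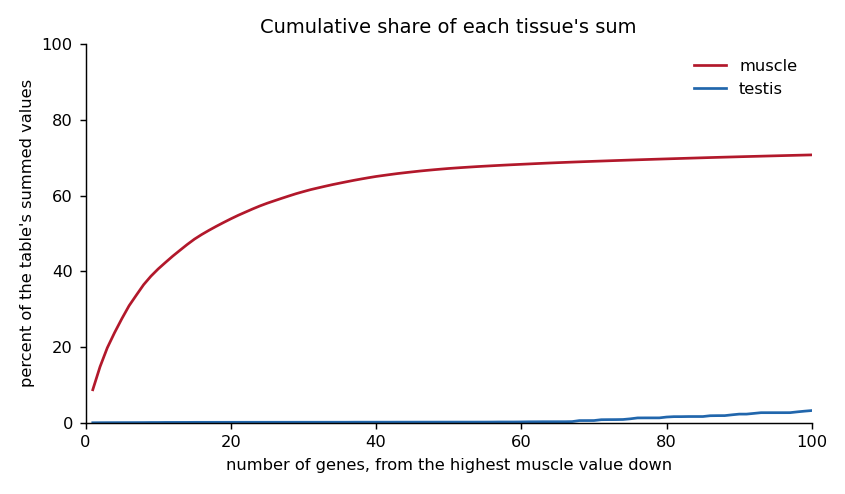
Cumulative percent of each table's summed values, in muscle and in testis, as genes are added from the highest muscle value down. The muscle curve passes 50% at gene 17 and ends at 70.7%, and the testis curve reaches 0.183% at gene 50 and ends at 3.23%.

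Genes 1 to 10 are the shared genes on which the muscle total rests most. Gene 1 had 96984 cpm in muscle and 107 cpm in testis. Gene 2 had 67514 cpm in muscle and 118 cpm in testis. Gene 3 had 55616 cpm in muscle and 71.5 cpm in testis. These 3 genes stood at testis ranks 1465, 1241 and 2774 of 16380 listed genes, in the upper part of the testis table although far below their place in muscle. Genes 4, 5 and 6 had 44427, 40910 and 38219 cpm in muscle and 43.6, 43.0 and 32.8 cpm in testis. Genes 7 and 8 had 31111 and 30560 cpm in muscle and 33.8 and 42.7 cpm in testis. Gene 9 had 24836 cpm in muscle and 145 cpm in testis, the highest testis value of these 10. Gene 10 had 21335 cpm in muscle and 11.3 cpm in testis, the lowest. Apart from genes 9 and 10, the log2 ratio of muscle over testis in this set lay within a narrow band, from 9.16 to 10.19.

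Log2 ratios between 9 and 10, close to this band, were frequent among the genes numbered 1 to 50 and rare among those numbered 51 to 100. The numbering follows the muscle value, which is also the numerator of the ratio. This contrast thus follows in part from the ranking, and nothing is read from it. Of the genes numbered 1 to 25, the median log2 ratio of muscle over testis was 9.72 (an 845-fold difference) and the quartiles were 9.25 and 9.89. Of those numbered 26 to 50 the median was 8.996 and the quartiles were 8.05 and 9.87. In all, 22 of the genes numbered 1 to 50 and 2 of those numbered 51 to 100 had a log2 ratio between 9 and 10, and a further 8 genes, all of the first 50, had a log2 ratio between 10 and 11. Muscle values of the genes numbered 1 to 50 spanned 96984 to 1748 cpm, and their testis values had a Pearson's r of 0.60 with them on the log2 scale (Spearman's rho = 0.57, across 50 genes). Over the genes numbered 1 to 25 alone r was 0.67 and rho 0.74, and over those numbered 26 to 50 r was -0.028 and rho -0.043. These correlations are across genes of the same 2 pooled tables, and genes are not independent replicates, so no p is given. Over the genes numbered 51 to 100 Pearson's r was -0.33, and over all 100 genes it was -0.22. Over all shared genes r was 0.42, and in the next 2 sets of 100 by muscle value it was 0.035 and 0.093. Sets cut by muscle value have a narrowed muscle range, so nothing is read from the differences between these r values.

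Some genes among the first 50 lay well off this band. DLAgn_00213640 (gene 17) had 12335 cpm in muscle and 1.90 cpm in testis, which gave the highest log2 ratio of the 100, 12.67. DLAgn_00211110 (gene 27) came next, with 7156 cpm in muscle, 2.92 cpm in testis and a log2 ratio of 11.26. Gene 23, with 9362 cpm in muscle and 3.90 cpm in testis, was close to it at 11.23. On the other side were genes with lower ratios, some of which reached over 100 cpm in testis. Gene 11 had 18992 cpm in muscle and 148 cpm in testis (log2 ratio 7.004). Gene 15 had 15784 cpm in muscle and 101.1 cpm in testis (7.29). Gene 37 had 4179 cpm in muscle and 106 cpm in testis, and its log2 ratio of 5.30 was the lowest of the first 50. Genes 43, 46, 47 and 49 also had low ratios, of 5.77, 6.75, 6.70 and 6.21, with 2786, 2316, 2073 and 1850 cpm in muscle and 51.2, 21.6, 19.9 and 25.03 cpm in testis. All of the first 50 were higher in muscle by more than 2-fold.

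Among all 100 genes, 86 had a higher value in muscle and 14 a higher value in testis as deposited. Over all 10538 shared genes the muscle value was the higher in 8.04%, and since the rule chose the 100 genes on muscle values, nothing is read from the gap. The same 86 genes exceeded 2-fold in muscle (4.22% of all shared genes) and 12 of the 14 exceeded 2-fold in testis (84.1% of all shared genes). The log2 ratio had a median of 8.02 over the 100 genes, against -2.74 over all shared genes. A 95% binomial interval for the median of the 100 genes ran from 6.70 to 8.80. It is not the range of their ratios and holds no variation between fish. It also treats the genes as independent, which they are not. They are all the genes that the rule picked and no sample of a larger set, so nothing is read from the interval. In the authors' own fold changes for genes expressed in both tissues, the median shift toward testis was smaller. The ratios as deposited are thus not those of the authors' comparison. The tables have different sums, and whether they are on a common scale is not given. With both brought to a sum of 1000000, 86 of the 100 genes were again higher in muscle (5.76% of all shared genes). With the median of the shared genes set to 0, all 100 lay above it, by 1.08 to 15.41 on the log2 scale. By construction 50% of all shared genes do so, and 99 and 98 of the 2 later sets of 100 did. Each scaling shifts all log2 ratios by the same amount.

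**Figure D3:**
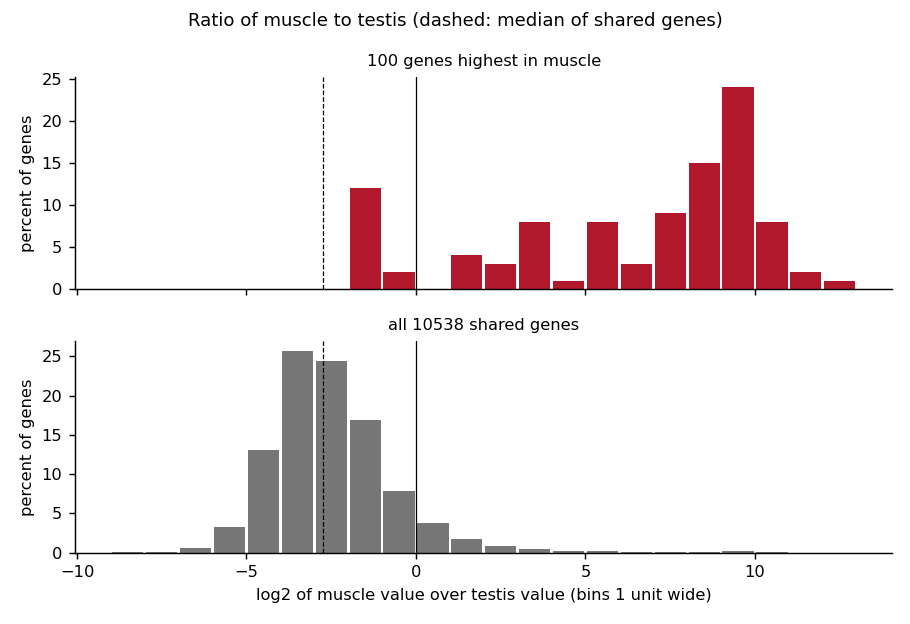
Percent of genes by log2 ratio of muscle over testis value, in bins 1 unit wide, for the 100 genes (top) and all 10538 shared genes (bottom); the dashed line marks the shared median of -2.74 and the solid line a ratio of 1. The 100 genes fall into a group of 14 below 0, none between -0.30 and 1.49, and a broad group with its highest bar at 9 to 10 (24 genes). Of all shared genes, 402 lie between 0 and 1.

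Of the 100 genes, 14 had a higher value in testis as deposited, and this direction depends on the scale between the tables. With the median of the shared genes set to 0, these 14 lay above it, with a median of 1.33 on the log2 scale. They were numbered between 68 and 100, with 529.8 to 788.6 cpm in muscle and 811 to 2118 cpm in testis. Their log2 ratios ran from -1.66 to -0.30, and 12 of the 14 lay between -1.7 and -1.2, while 840 of all shared genes lay in the same range. Of the next 2 sets of 100 by muscle value, 58 and 40 genes were higher in testis, with log2 ratios down to -3.83 and -4.60. Over all shared genes, 9691 were. The narrow muscle range of the 14 follows in part from the cut at gene 100, so they are not read as a group of their own. No gene of the 100 had a log2 ratio between -0.30 (gene 81) and 1.49 (gene 83). This gap was one of the 100 genes and not of all shared genes, of which 402 lay between 0 and 1. The shared gene just outside the 100, with 528.5 cpm in muscle, had a log2 ratio of -0.085, inside the gap. The next, with 524.7 cpm, was at 2.12, and the one after it, with 522.0 cpm, at -0.085. DLAgn_00188310 (gene 98) had the lowest ratio, with 536.9 cpm in muscle and 1692 cpm in testis (log2 ratio -1.66). DLAgn_00072370 (gene 89) was next, with 586.4 cpm in muscle and 1678 cpm in testis (-1.52). Both were about 3-fold higher in testis as deposited. Gene 68 had 788.6 cpm in muscle and 2118 cpm in testis, and was the only gene of the 100 above 2000 cpm in testis. Gene 76 followed with 722.5 cpm in muscle and 1904 cpm in testis, and gene 80 with 661.3 cpm in muscle and 1777 cpm in testis. These 14 genes held 85.6% of the testis sum of the 100 genes and 1.12% of their muscle sum. Both shares follow largely from taking genes with testis above muscle and from their late place in muscle rank, so nothing is read from them.

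The same 14 were the genes of the 100 that also belonged to the 100 shared genes highest in testis, of 10538 shared genes in all. Each of the 100 had at least 529.8 cpm in muscle, so those with a higher value in testis were bound to stand high there. Of the next 100 genes by muscle value, 43 belonged to the testis set, and of the 100 after those, 14 did. Within the testis table the 14 stood at rank 9 to 81. Gene 68 was at rank 9, gene 76 at rank 10, gene 80 at rank 12 and gene 71 at rank 13. Above 1000 cpm in testis were 13 of the 100 genes, 23 of the next 100 and 56 of all shared genes. The genes highest in both tissues were thus found at the lower end of the 100 and just below it, and 0 of the first 50 were among them.

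The other genes numbered 51 to 100 were of mixed kind. There were 36 with a higher muscle value, and their log2 ratios ran from 1.49 to 9.58. Gene 58 had 1084 cpm in muscle and 1.41 cpm in testis, the highest ratio of this range. Gene 91 had 572.6 cpm in muscle and 1.37 cpm in testis, the lowest testis value of all 100. The highest testis values among these 36 belonged to genes 67 and 61. Gene 67 had 832.5 cpm in muscle and 249.0 cpm in testis, and gene 61 had 1002.5 cpm in muscle and 246 cpm in testis. Genes of nearly the same muscle value could thus lie far apart in testis. Genes 57, 58 and 59 had 1140, 1084 and 1022 cpm in muscle and 157, 1.41 and 3.21 cpm in testis. Over the genes numbered 76 to 100, log2 testis values varied with an SD of 4.08 (n = 25 genes), against 1.55 over all shared genes. Their log2 muscle values had an SD of 0.14, which is small because these genes follow each other in muscle rank. The SD of log2 testis values was 3.06 over the genes numbered 51 to 75. It was 2.27 and 2.55 over the next 2 sets of 100 by muscle value, also above that of all shared genes.

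When all shared genes were divided into deciles of their testis value, the 100 genes were most often in the low deciles and in the highest. The lowest decile, up to 10.4 cpm, held 33 of them, the second 13 and the third 8. The highest decile, from 128 cpm, held 23. Each decile from the fourth to the ninth held between 2 and 6. The genes numbered 1 to 50 had 19 in the lowest decile and 2 in the highest, and the genes numbered 51 to 100 had 14 and 21. The next 100 genes were placed differently, with 4 in the lowest decile and 73 in the highest. The 100 after those had 12 and 45. The differences between these sets were not tested. In successive sets of 25, the median testis value was 22.3 cpm for genes 1 to 25, 7.17 cpm for genes 26 to 50, 59.9 cpm for genes 51 to 75 and 195 cpm for genes 76 to 100.

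**Figure D4:**
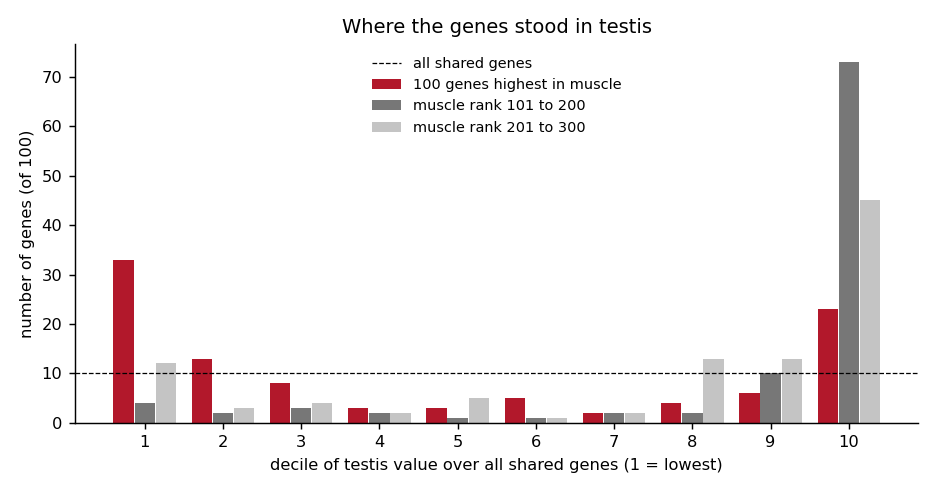
Number of genes in each decile of testis value (1 is the lowest, deciles set over all shared genes) for the 100 genes highest in muscle and the 2 sets of 100 that follow in muscle rank; the dashed line marks the 10 genes a set would have with the spread of all shared genes. The 100 genes have 33 in the lowest and 23 in the highest decile, while the next 100 have 4 and 73.

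Another column of the authors' files, headed baseMean, gives by its heading a mean of normalized counts over libraries for all 26719 identifiers. Which libraries it covers is not stated. Gene 1 stood at rank 2 by this mean although at rank 1465 in testis, so muscle libraries are part of it. The mean is therefore not independent of the choice, and the counts and rho below restate the muscle order in part. By this mean, 69 of the 100 genes were among the 100 highest of all identifiers, with all of the first 50 and 19 of those numbered 51 to 100. Gene 2 was highest and gene 1 second to it, and 9 of the genes numbered 1 to 10 were among the 10 highest shared genes. The order was alike but not equal (Spearman's rho = 0.92 across the 100 genes). The mean over libraries was 143 times the muscle value at the median, with quartiles of 122 and 176, and ran from 49.7 times to 348 times. The lowest was gene 17, which also had the highest ratio of muscle over testis. Genes 42, 51, 53 and 92 were above 300 times. The first 3 of these had 2919, 1517 and 1360 cpm in muscle and 5.94, 2.89 and 2.91 cpm in testis. The deposited columns therefore place these genes differently, and the cause was not tested.

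The identifiers go up in steps of 10 without a gap over all 26719, so a step is the distance to the next identifier. Whether their order follows the chromosomes is not given in the sources used here, so closeness of numbers is a description of the labels alone. The 100 genes were spread over the whole numbering. Cut into 10 equal parts, the numbering held between 5 and 15 of them in each part. The last 2 parts had 7 and 8 of them, although these parts held 605 and 513 shared genes and the others 1136 to 1214 each. In identifier numbers, the median distance of a gene to the nearest other of the 100 was 1010, while it was 705 in the next 100 genes and 780 in the 100 after those. Only 2 of the 100 genes had another of them at the very next number, against 0 and 4 in the later sets. Within 5 steps there were 9 genes, against 2 and 6, and within 10 steps 13 genes, against 6 and 10. Within 50 steps the order turned, with 33 genes against 37 and 34. The counts at short distance were small and the difference between the sets was not tested.

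**Figure D5:**
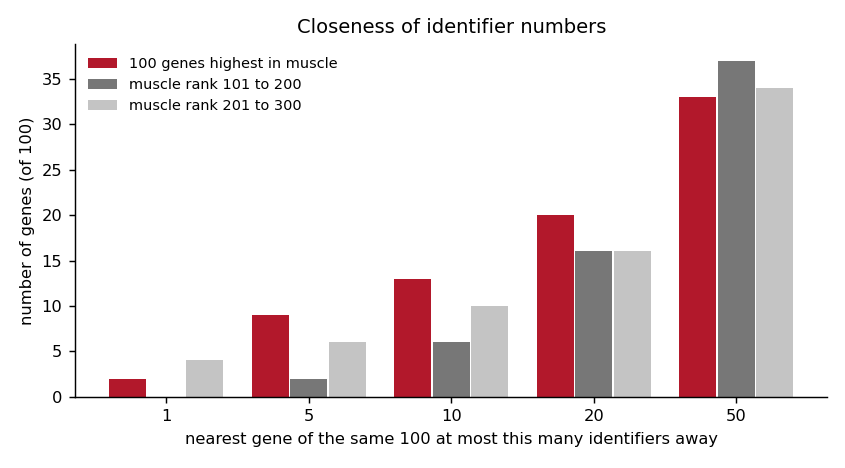
Number of genes, of 100, whose nearest other gene of the same set lies at most 1, 5, 10, 20 or 50 identifiers away, for the 100 genes highest in muscle and the 2 sets that follow in muscle rank. The first set has 9 genes within 5 identifiers (the others 2 and 6) and 33 within 50 (the others 37 and 34).

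The 13 genes within 10 steps formed 6 groups. Genes 41 and 64 had consecutive identifiers, with 2955 and 938.5 cpm in muscle and 2.44 and 2.20 cpm in testis. Genes 44 and 45 were 7 steps apart and nearly level, with 2458 and 2404 cpm in muscle and 4.81 and 6.08 cpm in testis. The largest group held 3 genes, each 3 steps from the next. These were genes 13, 91 and 19, with 17256, 572.6 and 11130 cpm in muscle and 20.4, 1.37 and 12.1 cpm in testis, so that their muscle values differed by up to 30.1-fold. All 3 had much higher values in muscle, with log2 ratios of 9.72, 8.71 and 9.85. Genes 66 and 85 were 8 steps apart, with 854.9 and 635.9 cpm in muscle and 17.2 and 3.32 cpm in testis. Genes 43 and 79 were 3 steps apart, with 2786 and 676.4 cpm in muscle and 51.2 and 2.28 cpm in testis. Genes 99 and 58 lay 2 steps apart and were unlike each other. They had 530.9 and 1084 cpm in muscle and 1491 and 1.41 cpm in testis. As deposited, the first was thus higher in testis and the other higher in muscle. Close numbers thus went with like ratios in some of these groups and not in others.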

How the data were processed

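RNA-seq reads of muscle and testis were aligned by the authors with the GEMtools pipeline to dicLab v1.0c, quantified per gene and scaled by TMM. The deposited tables hold 1 pooled value per gene and tissue headed cpm. Because the muscle values sum to 1111921, these deposited values were treated as a score of no fixed unit. How the libraries were pooled is not given in the sources used here. The deposited comparison table also holds a mean over libraries, likewise taken as a score. Its fold changes, test statistics and p-values are the authors' own comparison and were not used, and neither were the 6 methylation libraries, since gene positions were not at hand.

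Genes in both tables were ranked by muscle value and the first 100 kept. Ranks, shares of each table's sum, log2 ratios (no pseudocount, no filter), testis deciles and distances between identifier numbers were calculated and set beside all shared genes and the next 2 sets of 100. No test was made. The code for ranking shared genes, for identifier distances and for the mix of both tables was checked on simulated data. The other measures were not checked in that way. The genes, sets and measures were chosen with earlier results of these data known. Identifiers are printed for the 2 genes with the highest and the 2 with the lowest ratio, and other genes go by number. Alternatives were other totals, scalings, a pseudocount of 1, values under 1 left out, 50 or 200 genes and other limits on identifier distance. The work was done in Python 3.11.15 with pandas 2.3.3, numpy 2.4.6 and scipy 1.17.1, and plots with matplotlib 3.10.9.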

Additional observations from a re-analysis of the deposited data

How the results depend on the processing

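With 50 genes in place of 100, the shares were 67.1% of the muscle sum and 0.183% of the testis sum, 100% had a higher value in muscle, the median log2 ratio of muscle over testis was 9.44, and 0% were among the 50 shared genes highest in testis or next to each other in identifier number. With 200 genes, the shares were 73.9% in muscle and 11.05% in testis, 64% were higher in muscle, the median was 2.09 and 35% were among the 200 highest in testis. Over shared genes alone, the shares were 81.1% in muscle and 3.48% in testis. Without the highest gene they were 67.9% and 3.22%. With the median of the shared genes at 0, 100% were higher in muscle and the median was 10.76. With identifier numbers up to 50 or 100 apart, 9% and 13% had another of the genes close by, in place of 2%. The intervals used here treat the genes as independent and hold no variation between fish, so a value within one is not thereby unchanged. The other 8 of the 27 alternatives left the value within its interval or equal to 3 digits. They were both tables at a sum of 1000000, a pseudocount of 1, values under 1 left out, 200 genes for neighbouring identifiers and the order of shared genes. With both tables at that sum the median log2 ratio was 7.55, in place of 8.02. Leaving out values under 1 could not change the median, since the lowest value of the 100 genes in either tissue was 1.37 cpm. A scale between the tables from the mean over libraries was not run, since the best mix of both tables came within 10% of that mean for 47.3% of the shared genes. No paired analysis was possible because the values are pooled over fish. Each fish could not be left out in turn for the same reason.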
